A study of Mus musculus with 9 samples.

Results

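Melanin is made in melanosomes, and 10 genes that encode enzymes, structural proteins, transporters, a receptor and a transport protein of these organelles are described here, out of 22396 genes listed: Tyr, Tyrp1, Dct, Pmel, Mlana, Slc45a2, Oca2, Slc24a5, Gpr143 and Rab27a. They were chosen from the counts of the same libraries, with their lower values under OSGEP knockdown already in view, so their levels and differences between groups are given as a description without a p-value, and how many of them pass the threshold of the fit across all genes is counted as a description too. All 10 were in the table and all 10 passed the filter on low counts.

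RNA bound to the innate immune sensor RIG-I was sequenced from B16F10 cells, a mouse melanoma line, after pull-down of FLAG-tagged RIG-I (RIP-seq). OSGEP carries the enzyme activity of KEOPS, which places the t6A modification on tRNAs, and the comparison asks how its knockdown alters the RNA found with RIG-I. All cells stably carried FLAG-RIG-I and a lentiviral shRNA under puromycin selection: a scrambled control (shCtr), shOSGEP#1 or shOSGEP#2, with 3 libraries for each from separate transductions. The cell line is labelled wild type in its genotype, and the cells of a group are a transduced population.

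The control libraries held 40333037, 47750758 and 41805753 counts, and those of shOSGEP#1 held 34551436, 50224299 and 30697653. For shOSGEP#2 the totals were 25460689 in replicate 1 and 14914731 in replicate 3, but 568995 in replicate 2, where 4196 genes had a count against 11733 to 13958 in the other 8 libraries. That shallow library was therefore left out of group means and of the fit and is shown apart, so shOSGEP#2 has n = 2. A floor of 3 counts stands for 5.27 CPM (a gene's counts scaled by its library's total count, the usual CPM unit) in the shallow library and for 0.0597 to 0.201 CPM in the others. Floors cover counting error only.

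Osgep itself, the target of both shRNAs, had 19.1, 19.9 and 15.5 CPM in the shCtr libraries and 3.76, 1.15 and 1.53 CPM in shOSGEP#1. In shOSGEP#2 it had 2.88 CPM in replicate 3 and 2 counts in replicate 1. Every knockdown library lay below every control library. On the log2 scale Osgep stood at −3.10 ± 0.73 (SE) for shOSGEP#1 and −3.84 ± 0.93 for shOSGEP#2, with edgeR adjusted p of 0.0128 and 0.0150, which missed the threshold of 0.01. Without shOSGEP#2 replicate 1 the Osgep value for shOSGEP#2 was −2.78, and without replicate 3 only the 2 counts remain and no value is given. The value for shOSGEP#1 was −3.77 without shOSGEP#1 replicate 1, and it passed the threshold, at −3.11, on leaving out either shOSGEP#2 library. Ddx58, which encodes RIG-I, had 214 ± 55.5 CPM (SD, n = 3) in shCtr, 258 ± 60.3 (n = 3) in shOSGEP#1 and 415 ± 19.7 (n = 2) in shOSGEP#2. Its log2 fold changes of 0.26 ± 0.21 and 0.86 ± 0.23 missed the threshold as well (edgeR adjusted p 0.427 and 0.0239), though the second passed it, at 1.10, without shCtr replicate 3. All cells also carried the FLAG-RIG-I construct, and its reads may be counted with those of the cells' own Ddx58. These values are therefore no measure of the cells' own gene alone.

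Melanocytic markers were read beside the melanoma label, and all 6 were detected in each of the 8 libraries. Mitf, Sox10, Pmel, Mlana, Tyr and Dct summed to 4394, 4086 and 5473 CPM in the shCtr libraries. Their sum was 4622, 5277 and 4779 CPM in shOSGEP#1, and 1389 and 1760 CPM in shOSGEP#2 replicates 1 and 3. Pmel, Mlana, Tyr and Dct are among the genes described here, so the sum is no independent check of the label. Kit, a receptor of normal melanocytes, and Lef1 were at 0 in all 8 libraries. Markers of other cells were near 0 in shCtr: the 4 keratinocyte genes had no count, the 5 leukocyte genes summed to at most 0.526 CPM and the 3 endothelial genes to at most 1.08 CPM. The 5 fibroblast genes summed to 4.26, 6.03 and 6.27 CPM in shCtr.

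Melanosomes mature from endosomal compartments: PMEL builds the fibrils on which pigment is laid down, tyrosinase and its relatives convert tyrosine to melanin, and ion transporters set the conditions inside the organelle. Mature melanosomes then travel along actin with the help of RAB27A. In melanocytes and many melanomas, MITF and SOX10 drive transcription of these genes.

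Of the enzymes, Tyr, which encodes the rate-limiting tyrosinase, was lower with both shRNAs. It had 153, 153 and 193 CPM in shCtr, 30.4, 26.1 and 27.3 in shOSGEP#1, and 5.93 and 19.8 in shOSGEP#2. No knockdown library reached a control library, and the 2 shOSGEP#2 libraries differed from each other more than the 3 shOSGEP#1 libraries did. The log2 fold change of Tyr was −2.59 ± 0.32 (SE) for shOSGEP#1, a 6.01-fold lower level, and −3.83 ± 0.41 for shOSGEP#2, where it came to −3.20 without replicate 1 and to −4.87 without replicate 3. Because cells were measured in bulk, fewer pigmented cells and less RNA per cell cannot be told apart, and because lysate RNA is not analysed here, neither can less RNA in the cell and less RNA bound to RIG-I.

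Dct, the dopachrome tautomerase that acts after tyrosinase, did not follow Tyr. Its levels were 1438, 1242 and 1480 CPM in shCtr and 1621, 2060 and 1806 in shOSGEP#1, so that each shOSGEP#1 library lay above each control. In shOSGEP#2 they were 363 and 380 CPM, below every library of the other groups. The log2 fold changes of Dct were 0.39 ± 0.14 and −2.00 ± 0.17.

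Tyrp1, which encodes a further enzyme of eumelanin synthesis, had the smallest difference of the 10 genes in shOSGEP#2. It had 1942, 1953 and 3000 CPM in shCtr, 1666, 2288 and 2061 in shOSGEP#1, and 1227 and 1615 in shOSGEP#2. The shOSGEP#1 libraries overlapped the controls, while both shOSGEP#2 libraries lay below them. On the log2 scale Tyrp1 differed from shCtr by −0.21 ± 0.20 and −0.79 ± 0.23.

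The fibril gene Pmel showed the same split between the shRNAs as Dct, without the higher level in shOSGEP#1. Pmel had 1105, 1060 and 1404 CPM in shCtr, 1092, 1357 and 929 in shOSGEP#1, and 213 and 401 in shOSGEP#2. The log2 differences of Pmel were −0.09 ± 0.23 and −2.06 ± 0.28. Exons of Dgka overlap Pmel on the opposite strand in the GRCm38 annotation (chr10:128704195-128720238, plus strand), and whether the counting used strand is not stated, so reads of the pair may not be separated. Cdk2 also lies partly in the span of Pmel.

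Mlana encodes a membrane protein of early melanosomes that binds PMEL. It had 516, 451 and 723 CPM in shCtr, 603, 573 and 597 in shOSGEP#1, and 223 and 230 in shOSGEP#2. The shOSGEP#1 values lay inside the control range. Its log2 fold changes were 0.05 ± 0.18 and −1.41 ± 0.21.

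Among the transporters, Oca2, whose product helps set melanosomal pH, had few counts. It had 318, 367 and 391 counts in shCtr (7.88, 7.69 and 9.35 CPM), 67, 66 and 12 counts in shOSGEP#1 (1.94, 1.31 and 0.391 CPM), and 8 and 0 counts in shOSGEP#2. The knockdown libraries lay below all controls. The log2 fold change in shOSGEP#1 was −2.78 ± 0.65. In shOSGEP#2 replicate 3, where Oca2 had 0 counts, the floor of 0.201 CPM makes the level at least 41.3-fold lower than the shCtr mean.

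Slc24a5, an ion exchanger needed for pigmentation, was lower with both shRNAs. It had 161, 141 and 159 CPM in shCtr, 76.0, 93.4 and 70.6 in shOSGEP#1, and 39.6 and 55.5 in shOSGEP#2, and the 3 groups did not overlap. For Slc24a5 the log2 fold changes came to −0.95 ± 0.16 and −1.79 ± 0.20. Exons of Myef2 lie on the opposite strand of Slc24a5 in GRCm38 (chr2:125068124-125088677, plus strand), with the same limit on telling reads apart.

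Slc45a2, a transporter that supports tyrosinase activity, resembled Dct. It had 272, 304 and 438 CPM in shCtr, 366, 528 and 390 in shOSGEP#1, and 101 and 124 in shOSGEP#2. The first pair of groups overlapped and shOSGEP#2 lay below both. Its log2 fold changes were 0.33 ± 0.21 and −1.68 ± 0.25.

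The receptor gene Gpr143, whose product controls melanosome size, was lower with both shRNAs. It had 17.3, 17.0 and 21.2 CPM in shCtr, 8.19, 8.30 and 6.32 in shOSGEP#1, and 6.05 and 5.23 in shOSGEP#2. In log2 terms Gpr143 stood at −1.30 ± 0.23 and −1.80 ± 0.27. The levels of the knockdown groups differed little from each other beside the distance of both from the controls.

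Rab27a, which tethers melanosomes to the actin motor, overlapped the controls in shOSGEP#1 with a lower mean. It had 204, 207 and 296 CPM in shCtr, 219, 183 and 175 in shOSGEP#1, and 60.4 and 57.7 in shOSGEP#2. Its log2 fold changes were −0.31 ± 0.17 and −2.09 ± 0.21. A pseudogene, Gm27186, overlaps its exons on the same strand in GRCm38, so Rab27a counts carry that uncertainty.

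**Figure D1:**
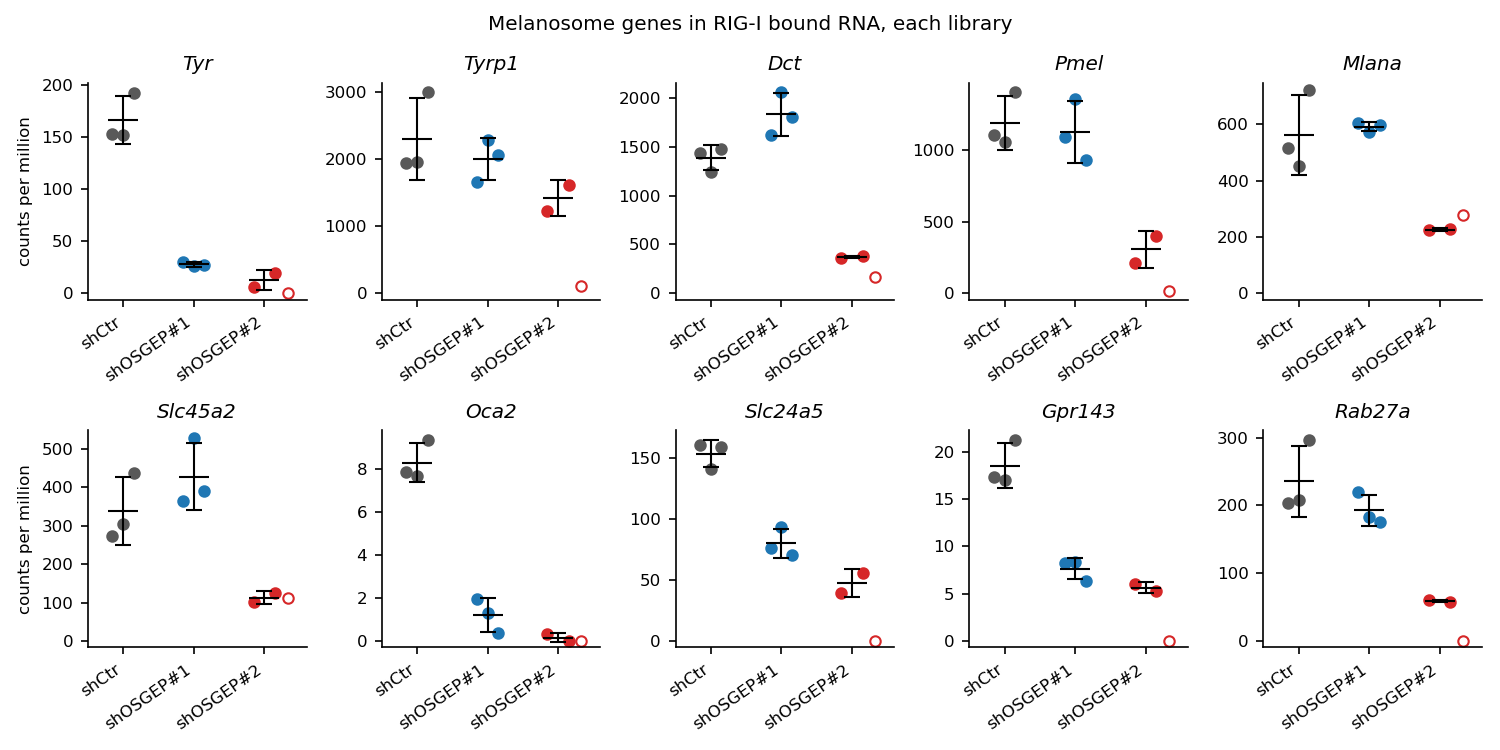
CPM of the 10 genes in RIG-I bound RNA on a linear axis, with 1 filled point for each library and a line and bars for the mean ± SD (n = 3, 3 and 2); the open point is the shallow shOSGEP#2 replicate 2, which is in no mean. Tyr, Oca2, Slc24a5 and Gpr143 lie below control with both shRNAs, and all 10 genes lie below control in the filled shOSGEP#2 points.

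Across the 10 genes, 3 were called lower for shOSGEP#1 at an edgeR adjusted p under 0.01 (Tyr, Slc24a5 and Gpr143), where 4.67% of the 12744 tested genes were called lower and 5.0% higher. For shOSGEP#2, 9 were called lower, all but Tyrp1, where 3.89% of tested genes were called lower and 5.66% higher. DESeq2 on the same libraries called 4 lower for shOSGEP#1, adding Oca2, and 10 for shOSGEP#2, adding Tyrp1. Groups that did not overlap, with the knockdown lower, were found for 4 of the 10 genes in shOSGEP#1 (22.2% of tested genes) and for 10 in shOSGEP#2 (23.6%). Since the members were chosen by these contrasts, nothing is read from the counts. The calls of Slc24a5 and Gpr143 for shOSGEP#1 were lost on leaving out any 1 of the shCtr libraries, which left Tyr; Slc24a5 was also lost without shOSGEP#1 replicate 3 and Gpr143 without shOSGEP#1 replicate 2. For shOSGEP#2 the Oca2 call was lost without any 1 of the shCtr libraries and the Mlana call without shOSGEP#2 replicate 3. Between the shRNAs directly, 4.56% of tested genes were called lower in shOSGEP#2 than in shOSGEP#1 and 6.23% higher. Of the 10 genes, 6 were called lower there (Dct, Pmel, Mlana, Slc45a2, Slc24a5 and Rab27a) and none higher, again given as a description. The 2 comparisons with shCtr share their control libraries.

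The shallow library shaped the test when it was included. With all 9 libraries edgeR called 0% of 12337 genes for either shRNA, and DESeq2 called 122 and 349. At an unadjusted p under 0.05, edgeR passed 620 genes for shOSGEP#1 and 1240 for shOSGEP#2. A share of about 0.05 of the tested genes passes that threshold where nothing differs, and 620 is close to that share. In that library Mlana had 158 counts where 129 were expected from the other shOSGEP#2 libraries, and Slc45a2 had 64 where 64.2 were expected. Tyrp1 had 66 where 808 were expected, Dct 94 where 211 were expected and Pmel 9 where 175 were expected. Rab27a, Slc24a5 and Tyr had 0 counts where 33.6, 27.1 and 7.31 were expected. Oca2 and Gpr143 were also at 0, but there only 0.0894 and 3.21 counts were expected, so their zeros say little. Mlana and Slc45a2 thus lay near or above the expected counts, and Tyrp1, Dct, Pmel, Rab27a, Slc24a5 and Tyr below them. Zeros were common in this library, at 19 of the 30 named genes outside the members with at least 10 expected counts. The zeros of Rab27a, Slc24a5 and Tyr are therefore not read as a lower level, and Tyr had fewer than 10 expected counts.

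Levels between genes can be compared only per length, here as CPM per kilobase of the coding transcript with the longest reading frame. In shCtr the order was Tyrp1 (845 ± 223, SD, n = 3), Dct (630 ± 57.7), Mlana (622 ± 157), Pmel (558 ± 87.7), Slc45a2 (113 ± 29.6), Slc24a5 (78.7 ± 5.66), Rab27a (74.5 ± 16.5), Tyr (27.5 ± 3.81), Gpr143 (11.7 ± 1.48) and Oca2 (2.65 ± 0.29). Ranges overlapped between Tyrp1 and Mlana, among Dct, Mlana and Pmel, and between Rab27a and both Slc45a2 and Slc24a5, so the order within these is not settled. In shOSGEP#1 Dct came first at 831 ± 99.9 (n = 3), overlapping Tyrp1 at 737 ± 116, and Tyr stood at 4.62 ± 0.37 CPM per kilobase, overlapping Gpr143 at 4.79 ± 0.70. In shOSGEP#2 Tyrp1 came first at 522 ± 101 (n = 2), followed by Mlana at 250 ± 4.91.

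Together the 10 genes took up 0.582%, 0.553% and 0.772% of all counts in shCtr, 0.568%, 0.712% and 0.606% in shOSGEP#1, and 0.224% and 0.289% in shOSGEP#2. The summed share in shOSGEP#1 overlapped the controls, and the 2 shOSGEP#2 values lay below them. Control replicate 3 was the highest of its group for 9 of the 10 genes, all but Slc24a5, and Mitf stood out in the same library. Whether that library's state plays a part in the differences was not tested.

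Mitf, the master regulator of the lineage, had 297, 357 and 784 CPM in shCtr, 401, 400 and 448 in shOSGEP#1, and 168 and 216 in shOSGEP#2. Neither log2 fold change of Mitf, −0.22 ± 0.30 for shOSGEP#1 and −1.42 ± 0.35 for shOSGEP#2, passed the threshold (edgeR adjusted p 0.656 and 0.0166); without shCtr replicate 1 the second did, at −1.67, and without shCtr replicate 3, where Mitf stood highest, it came to −0.86. Sox10, a neural crest factor that acts upstream of Mitf, had 884, 824 and 890 CPM in shCtr, 875, 862 and 972 in shOSGEP#1, and 417 and 514 in shOSGEP#2. Sox10 fell with shOSGEP#2, by 0.99 ± 0.16 on the log2 scale (edgeR adjusted p 0.00158), but that call was lost without shOSGEP#2 replicate 1. Its value for shOSGEP#1 was 0.05 ± 0.14.

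Of 15 lineage regulators, 11 were tested, and 2 fell with each shRNA while none rose. Over all tested genes, 4.67% were called lower and 5.0% higher for shOSGEP#1, and 3.89% and 5.66% for shOSGEP#2. Mc1r, the melanocortin receptor that raises pigment production, fell with both: 202, 187 and 253 CPM in shCtr became 97.0, 105 and 59.6 in shOSGEP#1 and 47.8 and 49.1 in shOSGEP#2. The groups did not overlap, and Mc1r stood at −1.31 ± 0.21 and −2.24 ± 0.25 on the log2 scale (edgeR adjusted p 0.00197 and 0.000261). Tfap2a fell with shOSGEP#1 (−1.06 ± 0.19, edgeR adjusted p 0.00295), a call lost without shOSGEP#1 replicate 2. The median log2 fold change of the tested regulators was −0.37 for shOSGEP#1 and −0.52 for shOSGEP#2, beside 0.00 and −0.06 over all tested genes.

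The other melanosome genes comprised 41 genes in 3 lists, all tested. For shOSGEP#1, 9 fell and 1 rose, and for shOSGEP#2, 8 fell and 2 rose. Of all tested genes, 4.67% fell and 5.0% rose for shOSGEP#1, and 3.89% and 5.66% for shOSGEP#2. These shares also stand beside the counts of each of the 3 lists. The median log2 fold changes of the 41 genes were −0.23 and −0.35, beside 0.00 and −0.06 over all tested genes. Leaving out single libraries brought the shOSGEP#1 count of 10 down to 4 without shOSGEP#1 replicate 2, to 5 without shCtr replicate 1 or 2, and to 6 without shCtr replicate 3.

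The sorting machinery that delivers cargo to melanosomes, BLOC and AP-3, had 18 genes. With shOSGEP#1, Hps3, Bloc1s2, Bloc1s3 and Ap3m1 fell by 1.03, 0.96, 0.90 and 0.72 on the log2 scale, and none rose. Each of these calls had an edgeR adjusted p between 0.00394 and 0.00997, and each was lost on leaving out any 1 of the shCtr libraries or shOSGEP#1 replicate 2; those of Hps3, Bloc1s3 and Ap3m1 were lost on leaving out any 1 shOSGEP#1 library. With shOSGEP#2, Hps3 fell (−1.18 ± 0.26, edgeR adjusted p 0.00909) and Bloc1s6 rose (1.11 ± 0.18, edgeR adjusted p 0.00198). That Hps3 call was likewise lost on leaving out any 1 shCtr or shOSGEP#1 library or shOSGEP#2 replicate 1, and the Bloc1s6 call without shCtr replicate 2 or shOSGEP#2 replicate 1.

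The 12 genes of cargo sorting and transport held 3 that fell with shOSGEP#1 and 4 that fell with shOSGEP#2, and none rose. Rab38, a GTPase that directs tyrosinase-bearing vesicles, had 751, 729 and 772 CPM in shCtr, 501, 449 and 418 in shOSGEP#1, and 263 and 278 in shOSGEP#2. The 3 groups did not overlap, and Rab38 fell by 0.73 ± 0.13 and 1.57 ± 0.16 on the log2 scale (edgeR adjusted p 0.00349 and 0.000163). Mreg, which acts in melanosome transfer and transport, fell with both as well (−1.27 ± 0.20 and −1.91 ± 0.24, edgeR adjusted p 0.00203 and 0.000481). For shOSGEP#1, the Rab38 call was lost on leaving out any 1 shCtr library or shOSGEP#1 replicate 2, and the Mreg call without shOSGEP#1 replicate 2.

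Tbc1d16, a GTPase-activating protein, split the shRNAs. It had 86.5, 92.5 and 99.9 CPM in shCtr, 26.1, 21.4 and 11.7 in shOSGEP#1, and 105 and 133 in shOSGEP#2. It fell with shOSGEP#1 (−2.25 ± 0.25, edgeR adjusted p 0.000338). Lyst and Bace2 fell with shOSGEP#2 (−1.14 ± 0.17 and −2.21 ± 0.40, edgeR adjusted p 0.00117 and 0.00341), the Lyst call being lost without shOSGEP#2 replicate 3 and the Bace2 call without shOSGEP#2 replicate 1 or when only the 2 groups were fitted.

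In the list of 11 other melanosome and pigment proteins, 2 fell and 1 rose with shOSGEP#1, and 3 fell and 1 rose with shOSGEP#2. Trpm1, a melanocyte ion channel gene, fell with both: 240, 258 and 323 CPM in shCtr, 64.6, 35.8 and 27.5 in shOSGEP#1, and 17.4 and 47.5 in shOSGEP#2. Its log2 fold changes of −2.70 ± 0.37 and −3.19 ± 0.45 had edgeR adjusted p of 0.000919 and 0.000821, and the second came to −2.66 without shOSGEP#2 replicate 1 and to −4.04 without replicate 3. Mfsd12 fell with shOSGEP#1 (−1.43 ± 0.21, edgeR adjusted p 0.00124). Tspan10 fell with shOSGEP#2 (−1.92 ± 0.26, edgeR adjusted p 0.00058), and Tpcn2, at 2.97 ± 0.044 CPM in shCtr and at 7.03 and 15.0 CPM in shOSGEP#2, rose (1.78 ± 0.37, edgeR adjusted p 0.00674), a call lost on leaving out any 1 shCtr library, shOSGEP#1 replicate 1 or 2, or shOSGEP#2 replicate 3, where the value was 1.18, and when only the 2 groups were fitted.

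Gpnmb, a homologue of Pmel, moved in opposite directions. It had 2543, 2027 and 2229 CPM in shCtr, 4170, 5997 and 5546 in shOSGEP#1, and 1100 and 1237 in shOSGEP#2. The groups did not overlap. Gpnmb rose with shOSGEP#1 (1.20 ± 0.17, edgeR adjusted p 0.000944) and fell with shOSGEP#2 (−1.05 ± 0.19, edgeR adjusted p 0.00314), and the second call was lost without shCtr replicate 1 or either shOSGEP#2 library.

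**Figure D2:**
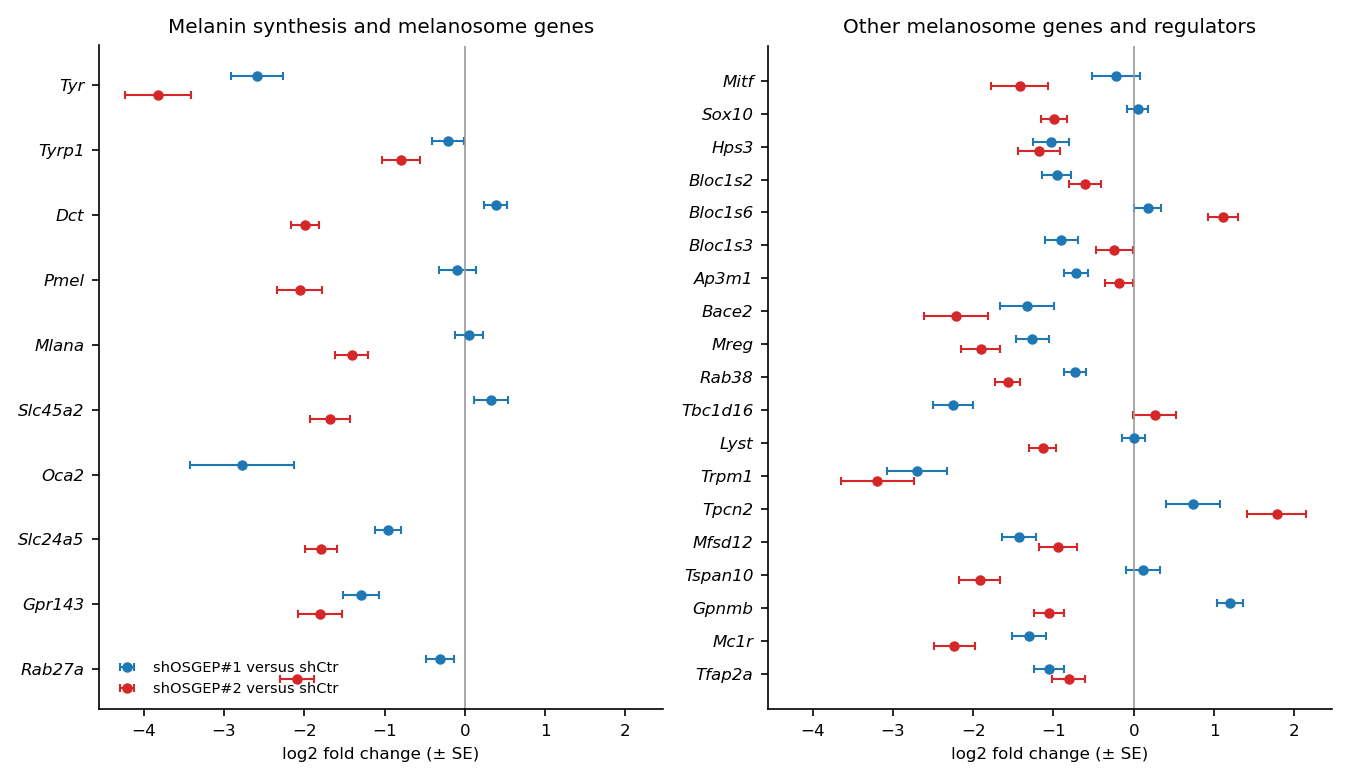
Log2 fold changes against shCtr from edgeR on 8 libraries, points with bars of ± SE, for the 10 genes and for the named other melanosome genes and regulators; Oca2 in shOSGEP#2, at 8 and 0 counts, is not drawn. Trpm1, Mreg, Rab38 and Mc1r lie below 0 with both shRNAs, and Gpnmb lies above 0 for shOSGEP#1 and below it for shOSGEP#2.

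Targets of MITF outside pigmentation moved both ways. Of 10 genes, 9 were tested: 2 fell and 2 rose with shOSGEP#1, and 4 fell and 1 rose with shOSGEP#2. Among all tested genes, 4.67% fell and 5.0% rose with shOSGEP#1, and 3.89% and 5.66% with shOSGEP#2. Met fell with both (−1.98 ± 0.23 and −1.66 ± 0.27, edgeR adjusted p 0.000406 and 0.00173), as did Cdk2 (−1.13 ± 0.22 and −2.08 ± 0.27, edgeR adjusted p 0.00514 and 0.000481), whose locus overlaps the span of Pmel in GRCm38. Bcl2, a survival gene, rose with both (0.89 ± 0.16 and 1.38 ± 0.18, edgeR adjusted p 0.00379 and 0.000535). Diaph1 rose with shOSGEP#1 (0.84 ± 0.17), and Tbx2 and Apex1 fell with shOSGEP#2 (−1.20 ± 0.20 and −1.18 ± 0.19). Leaving out shOSGEP#1 replicate 2 or 3 or shCtr replicate 2 ended the Cdk2, Bcl2 and Diaph1 calls for shOSGEP#1, and other controls did so for some of them. Leaving out shOSGEP#2 replicate 3 ended the Met and Apex1 calls for shOSGEP#2, and replicate 1 that of Met.

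Lysosomes share their origin with melanosomes, and 20 lysosomal genes were set beside them. With shOSGEP#1, 4 rose and none fell, and with shOSGEP#2, 1 fell and none rose. The shares over all tested genes were 4.67% lower and 5.0% higher, and 3.89% and 5.66%. Groups did not overlap for 10 genes higher and 1 lower in shOSGEP#1, and for 10 higher and 3 lower in shOSGEP#2. Over the 12744 tested genes these numbers were 2942 and 2830 in shOSGEP#1, and 3661 and 3007 in shOSGEP#2. Ctsb, a cathepsin, had 219, 176 and 175 CPM in shCtr, 561, 918 and 1015 in shOSGEP#1, and 270 and 259 in shOSGEP#2. Ctsb, Hexa, Ctsa and Gusb rose with shOSGEP#1 by log2 fold changes of 2.12, 1.96, 1.39 and 1.09 (edgeR adjusted p 0.000255, 0.000284, 0.00234 and 0.00174), while Ctsd fell with shOSGEP#2 (−1.05 ± 0.22, edgeR adjusted p 0.00686). The Ctsa and Gusb calls were lost without shOSGEP#1 replicate 2 or shCtr replicate 2, as was Ctsa without shCtr replicate 3 and Gusb without shCtr replicate 1. The Ctsd call was lost on leaving out any 1 shCtr library, shOSGEP#1 replicate 2 or shOSGEP#2 replicate 3, and when only the 2 groups were fitted. The median log2 fold change of the list was 0.58 for shOSGEP#1 and 0.05 for shOSGEP#2.

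Markers of other cells were also read beside these changes. The summed level of the 5 fibroblast genes was 16.4 and 33.8 CPM in shOSGEP#2 against at most 6.27 CPM in shCtr and 5.83 in shOSGEP#1, Col1a2 being the most abundant and Lum at 0 throughout the 8 libraries. Col1a1 and Col1a2 were not called against shCtr for shOSGEP#2 (edgeR adjusted p 0.0250 and 0.0249). Neither was Pdgfra, whose groups overlapped (edgeR adjusted p 0.236), and Dcn had at most 0.124 CPM in any of the 8 libraries. The 4 keratinocyte genes stayed at or below 0.116 CPM in sum, with Krt5, Krt1 and Krt10 at 0. The 5 leukocyte genes reached 1.68 CPM in shOSGEP#2 replicate 3, with Cd3e the most abundant and Itgam at 0, and the 3 endothelial genes, led by Pecam1, reached 2.18 CPM in shOSGEP#1 replicate 3. The mitochondrial share of counts was 2.96% in shOSGEP#1 replicate 3 and between 0.147% and 0.445% in the other 7 libraries of the fit. The part of these levels in the results was not tested.

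The genes whose levels were most like the members' were ranked by Pearson's r with the mean of the members' standardised log2 CPM over 8 libraries. They were Eci2 (r = 0.982), Map2k4, Pip4p2, Sdcbp, Nudt16l1, Nckap5l, Tceal8 and Ppdpf (r = 0.975). Sdcbp, for example, had 532 ± 56.8 CPM in shCtr, 441 ± 84.5 in shOSGEP#1 and 128 ± 14.5 in shOSGEP#2. Of the members themselves, Rab27a was closest to the mean (r = 0.977) and Gpr143 farthest (r = 0.839). Each member is part of that mean, which raises its r, so the r values of members and of other genes are not comparable. The libraries of a group share their treatment, so these r values mostly describe the group differences.

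RefSeq promoter windows (GRCm38.p6) were available for 6 of the 10 genes, 7 windows in all, and the 250 bases before the start were searched on both strands for 4 motifs. The first, CATGTG, a form of the E-box bound by MITF-family factors, was found in 5 of the 6 genes, Tyr, Tyrp1, Dct, Slc24a5 and Oca2, and in 12.3% of 32851 promoter windows of the same length. The longer TCATGTG, which contains the first, was found in 4 of the 6 genes and in 3.25% of windows. The palindrome CACGTG was found in Rab27a alone of the 6 and in 6.02% of windows. A SOX-type motif, ACAAAG, was found in 3 of the 6 genes and in 16.5% of windows. In Tyr and Tyrp1 the match began 21 and 46 bases before the start on the gene's strand, and in Slc24a5 13 bases before it on the other strand. Farther away, Dct had matches at 150 bases on its own strand and 232 on the other, and Oca2 at 186 on the other. Such a match is a description of the letters and not of a bound site. The windows of the 4 genes with TCATGTG are shown. Capitals mark CATGTG or its reverse complement, and positions are chr7:87493513-87493762 (minus strand) for Tyr, chr4:80833963-80834212 (plus) for Tyrp1, chr14:118052247-118052496 (minus) for Dct and chr2:125067877-125068126 (plus) for Slc24a5.
Tyr: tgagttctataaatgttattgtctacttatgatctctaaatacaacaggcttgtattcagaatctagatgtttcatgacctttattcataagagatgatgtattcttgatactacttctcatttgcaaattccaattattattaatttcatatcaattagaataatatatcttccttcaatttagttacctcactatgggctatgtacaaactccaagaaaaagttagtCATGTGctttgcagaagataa
Tyrp1: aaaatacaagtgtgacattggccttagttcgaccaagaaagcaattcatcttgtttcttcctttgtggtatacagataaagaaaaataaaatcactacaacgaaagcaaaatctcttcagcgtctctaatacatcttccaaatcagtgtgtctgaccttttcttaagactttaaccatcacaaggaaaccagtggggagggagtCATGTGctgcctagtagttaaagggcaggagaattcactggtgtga
Dct: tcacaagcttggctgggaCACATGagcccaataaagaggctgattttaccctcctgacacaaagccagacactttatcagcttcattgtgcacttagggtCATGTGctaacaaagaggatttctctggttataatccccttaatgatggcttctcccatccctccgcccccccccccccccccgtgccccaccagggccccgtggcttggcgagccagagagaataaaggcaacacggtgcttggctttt
Slc24a5: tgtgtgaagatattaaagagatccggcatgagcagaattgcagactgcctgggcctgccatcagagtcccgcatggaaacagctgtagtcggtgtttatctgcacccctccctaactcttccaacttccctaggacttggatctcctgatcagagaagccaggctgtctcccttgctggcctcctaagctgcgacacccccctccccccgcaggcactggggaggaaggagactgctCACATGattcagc
Of these 4 genes, Tyr and Slc24a5 lay below all controls in shOSGEP#1, Tyrp1 overlapped them and Dct lay above them; Oca2, not shown, lay below them.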

How the data were processed

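RIG-I bound RNA from 9 B16F10 libraries was depleted of ribosomal RNA, prepared with a stranded kit and sequenced as paired ends. Trim Galore, STAR (on GRCm39) and Salmon were used by the authors, who deposited raw counts for each gene and library as whole numbers. How the values became whole, and whether strand was used, is not stated. Gene symbols were matched by Ensembl ID for 22237 of 22396 genes.

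From the counts, CPM was computed on library totals. The fit across all genes used edgeR 4.0.16 in R 4.3.3, with TMM scaling, filterByExpr, the quasi-likelihood test, 8 libraries in 3 groups without covariate, and a Benjamini-Hochberg adjusted p under 0.01. The SE of a log2 fold change is its size divided by the root of the F statistic. Replicates are separate transductions. The alternatives were DESeq2 1.42.0, other scalings and filters, a threshold of 0.05, the replicate block, all 9 libraries and each library left out.

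The members and the gene lists were chosen with earlier results of these data known. Named were the members, Osgep, Ddx58, Mitf, Sox10, in each list up to 8 called genes or otherwise the 2 most abundant, and the 8 genes most like the members.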

Additional observations from a re-analysis of the deposited data

Results flagged for a closer look

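The effects of the 2 shRNAs differed from each other for 16 named genes outside the members, by the edgeR test of shOSGEP#2 against shOSGEP#1 at an adjusted p under 0.01. The log2 fold change between the shRNAs was −2.25 ± 0.20 (SE) for Gpnmb (adjusted p 0.000102) and 2.51 ± 0.27 for Tbc1d16 (adjusted p 0.000206). The fibroblast markers Col1a2 and Col1a1 were higher in shOSGEP#2, by 2.85 ± 0.64 and 2.66 ± 0.57 (adjusted p 0.00948 and 0.00750). Both of these calls were lost without shCtr replicate 1 or 2, any 1 shOSGEP#1 library or shOSGEP#2 replicate 3, and without the last the values were 2.04 and 1.73. Of the other listed fibroblast markers, Pdgfra was not called (0.93 ± 0.81, edgeR adjusted p 0.431), and Dcn and Lum were too low to be tested. Tspan10 and Lyst were lower in shOSGEP#2, with log2 values of −2.03 and −1.14, as was Rab38 at −0.84. Bloc1s6 was higher in shOSGEP#2, at 0.94. Among regulators and MITF targets the values were −1.04 for Sox10, −1.44 for Tbx2 and −1.14 for Apex1. The lysosomal genes Ctsb, Hexa, Ctsa, Gusb and Ctsd had values of −1.73, −1.65, −1.35, −1.16 and −1.53. The calls of Rab38, Lyst, Apex1 and these 5 lysosomal genes were also lost without shOSGEP#2 replicate 3, and that of Bloc1s6 without shOSGEP#2 replicate 1, shCtr replicate 2 or any 1 shOSGEP#1 library. Rab38 was lost as well without shOSGEP#1 replicate 1 or 2 or shOSGEP#2 replicate 1, and Ctsa without shOSGEP#1 replicate 2 or 3.

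The shallow library of shOSGEP#2, which the fit on 8 libraries leaves out, held 5 named genes at levels above every control library. Sox10 had 1090 CPM from 620 counts, against at most 890 CPM in shCtr. Tbx2 had 562 CPM, Tbc1d16 327 CPM and Bcl2 239 CPM, against at most 298, 99.9 and 56.4 CPM in shCtr. Col1a1 had 68.5 CPM from 39 counts, against at most 3.20 CPM. In the same library 19 of the 30 named genes outside the members with at least 10 expected counts had none, among them Ddx58, Rab38, Mitf and Bloc1s6, with 236, 154, 109 and 32.3 counts expected from the other shOSGEP#2 libraries. These levels were not tested.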

How the results depend on the processing

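In shOSGEP#2 the log2 fold change of each of the 10 members was negative under every alternative that gave a value. The size moved more. Under the replicate block on all 9 libraries, Tyrp1 came to −1.59, Dct to −2.46, Pmel to −2.91 and Oca2 to −6.25. Under the same setting Slc24a5 came to −2.63, Gpr143 to −2.37 and Rab27a to −3.02. In shOSGEP#1 Tyr, Oca2, Slc24a5, Gpr143 and Rab27a were negative and Dct and Slc45a2 positive throughout, while Tyrp1, Pmel and Mlana, which were not called, took either sign. Without shCtr replicate 3, Tyrp1 stood at 0.03 and Pmel at 0.05. Oca2 in shOSGEP#2 has no value without shOSGEP#2 replicate 1, where 0 counts remain.

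The counts of genes called, 1232 for shOSGEP#1, 1217 for shOSGEP#2 and 1375 between the shRNAs, depended on the setting. DESeq2 called 2419, 2405 and 2592, and an adjusted p under 0.05 gave 2797, 2674 and 2952, with 16 other melanosome genes for shOSGEP#2. With only the groups compared, 737 genes were called between the shRNAs. All 9 libraries gave 0 in edgeR for each of these counts, members and other melanosome genes included. At an unadjusted p under 0.05 that fit passed 620, 1240 and 1325 of 12337 genes. The first of these is near the share of 0.05 that passes where nothing differs. DESeq2 on all 9 libraries gave 122, 349 and 413 genes. These held 0 members for shOSGEP#1 and 6 for shOSGEP#2 (Tyr, Dct, Mlana, Slc45a2, Oca2 and Gpr143). They also held 1 other melanosome gene for shOSGEP#1 and 2 for shOSGEP#2. Including the shallow library moved the median log2 fold change over all genes from −0.06 to −0.37 for shOSGEP#2. The cause was not tested.

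Leaving out 1 library at a time gave 318 to 1458 genes for shOSGEP#1, 518 to 1471 for shOSGEP#2 and 743 to 1504 between the shRNAs. Members called lower ranged from 1 to 4 and from 8 to 9, and other melanosome genes from 4 to 10 and from 7 to 10. With fewer samples the fit has fewer degrees of freedom, and where 1 shOSGEP#2 library remained it was assumed to vary like the other groups.

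The replicate number as a block kept the members called lower at 3 and 9 on 8 libraries and gave 0 genes on all 9. On 8 libraries it called 1380, 1238 and 1393 genes and ended the calls of Bloc1s3 for shOSGEP#1, of Tpcn2 and Ctsd for shOSGEP#2, and of Col1a1 and Col1a2 between the shRNAs. Same-numbered libraries correlated between −0.0034 and 0.18 in their deviations from the group means, and differently numbered ones between −0.18 and 0.14. With 2 shOSGEP#2 libraries, their deviations mirror each other, so their values come as pairs of equal size and opposite sign. Of the 3 shCtr libraries, 2 correlated best with their own number in shOSGEP#1. These values cannot decide whether the numbers mark pairs. Library names carry the replicate number as a prefix across the groups, and the paper describes the replicates of this assay as independent experiments. Neither states that a number marks an experiment shared by the groups, and the numbers were not taken as pairs. Library totals ended the Hps3 call for both shRNAs and the Bloc1s3 call, and RLE scaling the Bloc1s3 call and that of Hps3 for shOSGEP#2. With only the groups compared, the calls of Hps3, Bace2, Tpcn2 and Ctsd for shOSGEP#2 and of Bloc1s6, Rab38, Ctsa, Col1a1 and Col1a2 between the shRNAs were lost, and Osgep for shOSGEP#1 was called. On 8 libraries, Osgep, Ddx58 and Mitf for shOSGEP#2 were called by DESeq2, with no filter and at an adjusted p under 0.05, Mitf also under the block, and Osgep for shOSGEP#1 with no filter and at 0.05. Under the block on all 9 libraries, the log2 fold change of Ddx58 for shOSGEP#2 turned to −0.19. Over the libraries left out, Mitf for shOSGEP#1 ranged from −0.48 to 0.34, positive without shCtr replicate 3, and Sox10 from −0.0098 to 0.078, negative without shOSGEP#1 replicate 3. None of these 3 values was called.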
